A study of Mus musculus with 12 samples.

Results

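The loss of 1 copy of the Hoxa9, Hoxa10 and Hoxa11 block in a uterus that already lacked both copies of Hoxd9, Hoxd10 and Hoxd11 was examined by RNA sequencing of whole mouse uterus. The library of Hoxa9,10,11+/-d9,10,11-/- uterus (Hoxa-het Hoxd-null) was compared with that of Hoxd9,10,11-/- uterus (Hoxd-null), and a gene was called when its log2 values differed by 1 or more, that is 2-fold, in either direction. Of 16836 measured genes, 1680 were called (9.98%): 920 were higher in the Hoxa-het Hoxd-null uterus (5.46%) and 760 were lower (4.51%). The WT uterus, the Hoxa9,10,11-/- uterus (Hoxa-null) and the Hoxa9,10,11-/-d9,10,11+/- uterus (Hoxa-null Hoxd-het) gave the context of full Hoxa block loss. All animals were of a CD1/129 strain background, 3 to 7 months old, and females were collected in diestrus. Each library was 1 pool of RNA from 3 animals. The compared pair shares the Hoxd mutation and was run in the same lane, as was the Hoxa-null Hoxd-het library, while WT and Hoxa-null were run in the neighbouring lane.

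With 1 pool for each genotype there is no replicate spread, so no test was made and every difference is between 2 libraries, not between genotypes with known error. The deposited values are log2, centred for each gene on its median over 6 female libraries (5 uterus and 1 WT oviduct), so a level could be read only where a library stood at the floor of 1 normalised read. Relative depth, read from the size of 1 read, was 1.31 times as great in the Hoxa-het Hoxd-null as in the Hoxd-null library, and these were the deepest and the shallowest of the 5 uteri. In whole tissue, fewer cells of a type and less RNA per cell cannot be told apart. A value at the floor can also be a failed estimate: Rbm42, an RNA-binding protein gene that is widely expressed, stood at 1 normalised read in the Hoxd-null, Hoxa-null Hoxd-het and oviduct libraries, at 26.0 in WT and at 9.97 in Hoxa-het Hoxd-null. Just inside and just outside the 2-fold line, the differences were 1.001 and 0.999 on the higher side and -1.002 and -0.996 on the lower side.

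Hox genes encode homeodomain transcription factors that give position along the body axis, and in the female tract the 9 to 11 paralogues mark successive segments of the Müllerian duct, from which oviduct, uterus and upper vagina form. The paralogues of the A and D clusters have overlapping functions, so that mutation of one cluster is partly covered by the other. In the adult uterus Hoxa10 and Hoxa11 take part in the response of stroma and epithelium to steroid hormones, and in the formation of the glands whose secretions an embryo needs to implant.

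Across the called genes the sizes were spread widely: 200 of the higher and 199 of the lower genes differed by 4-fold or more, and 48 and 57 by 8-fold or more. To ask whether a difference went the way of full Hoxa block loss, each called gene was placed by its log2 difference from WT in the Hoxa-null and the Hoxa-null Hoxd-het uterus. These libraries played no part in the 2-fold calls. They did count toward the minimum of 20 normalised reads in the highest female library. A low gene such as Pitx1 was measured only through them. Of the 920 higher genes, 158 (17.2%) were also 2-fold or more above WT in both Hoxa-null uteri, where 3.74% of all measured genes were. Another 88 (9.57%) were 2-fold or more below WT in both, where 3.85% of all measured genes were. Of the 760 lower genes, 177 (23.3%) were 2-fold or more below WT in both, against 3.85% of all measured genes, and 47 (6.18%) were above, against 3.74%. Taken singly, 6.07% of all measured genes were 2-fold or more above WT and 7.46% below in Hoxa-null, and 8.57% and 6.96% in Hoxa-null Hoxd-het uterus. The share that went the same way was therefore larger than the share that went the opposite way on each side, and most called genes were in neither class. Both shares were above those of all measured genes. Over all 16836 measured genes, which are not independent replicates, the difference had a Pearson r of 0.15 and a Spearman rho of 0.02 with Hoxa-null minus WT, and 0.20 and 0.17 with Hoxa-null Hoxd-het minus WT.

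**Figure D1:**
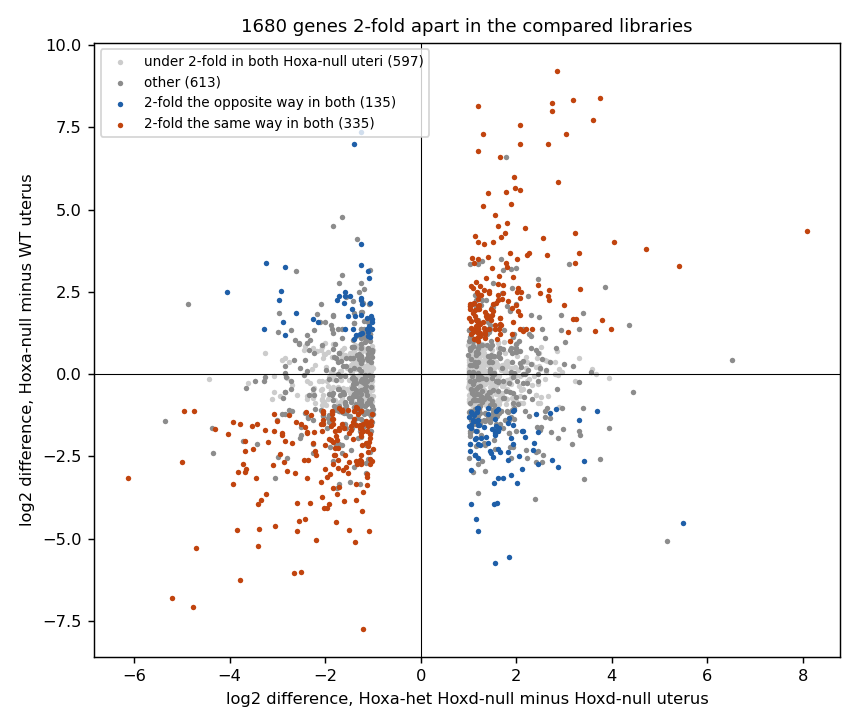
Each point is a gene called in the compared pair: the x axis gives its log2 difference, Hoxa-het Hoxd-null minus Hoxd-null uterus, and the y axis its log2 difference, Hoxa-null minus WT uterus (1 pooled library each). Orange points (335 genes) are 2-fold or more the same way in both Hoxa-null uteri, blue points (135 genes) the opposite way, and grey points are the remaining genes.

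The starting point of these genes differed between the sides. The Hoxd-null uterus was within 2-fold of WT for 516 of the 920 higher genes and 492 of the 760 lower genes. The Hoxa-het Hoxd-null uterus lay 2-fold or more beyond all 4 other uteri for 172 of the higher and 186 of the lower genes. The Hoxd-null uterus lay 2-fold or more beyond all 4 others, on the opposite side, for 174 of the higher genes and for 61 of the lower genes. For the higher genes, then, a Hoxd-null value beyond all 4 others was about as frequent as such a Hoxa-het Hoxd-null value. For the lower genes it was the Hoxa-het Hoxd-null library that lay beyond the others more often. The choice of genes by a 2-fold difference between these libraries fixes part of these counts. Shares over all measured genes were not computed, so the counts are a description only.

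Among the mutated genes themselves, Hoxa11 was called lower, with a difference of -1.06. Its log2 difference from WT was 0.03 in Hoxd-null, -1.03 in Hoxa-het Hoxd-null, -3.11 in Hoxa-null Hoxd-het and -2.74 in Hoxa-null uterus. The 3 uteri with a mutated Hoxa block were thus all below WT, the heterozygote least. Hoxa10 differed by -0.80 and Hoxa9 by 0.05, neither called, and Hoxa9 stood at -0.34 relative to WT in the Hoxa-null uterus. Of the Hoxd block, Hoxd11 differed by -0.99, Hoxd10 by -0.32 and Hoxd9 by -0.25. Hoxd9 and Hoxd10 stood at 0.00 and 0.57 relative to WT in the Hoxd-null uterus, so the transcript level of these genes did not separate mutant from WT libraries and does not serve as a check of the labels.

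All 7 measured genes of the Hoxc cluster were higher in the Hoxa-het Hoxd-null uterus, 4 of them by 2-fold or more (57.1%, against 5.46% of all measured genes). Their median difference was 1.37, against 0.01 for all measured genes. The median was 0.87 when genes below the minimum level were kept. Hoxc8 differed by 2.05, and its values relative to WT were -0.65 in Hoxd-null, 1.40 in Hoxa-het Hoxd-null, 3.30 in Hoxa-null Hoxd-het and 2.62 in Hoxa-null uterus. Hoxc10 differed by 1.76, with 2.23, 3.99, 4.69 and 4.29 in the same order. Hoxc9 differed by 1.69, with 1.68, 3.37, 4.98 and 4.16. In each of the 7 Hoxc genes the Hoxa-het Hoxd-null value lay above Hoxd-null and below both Hoxa-null uteri. This order was found in 13.5% of all measured genes and in 19.5% of the genes called higher.

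The 6 measured Hoxa genes outside the mutated block were also all higher, with a median of 0.65, but only Hoxa6 was called. Hoxa6 differed by 2.51, from -0.82 in Hoxd-null to 1.69 in Hoxa-het Hoxd-null, with 3.07 in Hoxa-null Hoxd-het and 2.46 in Hoxa-null uterus. For 5 of the 6, against 13.5% of all measured genes, the Hoxa-het Hoxd-null value lay above Hoxd-null and below both Hoxa-null uteri. The exception was Hoxa2, at 1.01 in Hoxa-het Hoxd-null and 0.74 in Hoxa-null uterus. None of 8 Hoxb genes was called, their median being 0.33, and none of 3 other Hoxd genes was, with a median of 0.24. Of 9 Meis and Pbx genes, whose proteins bind DNA together with Hox proteins, none was called. Reads from neighbouring genes of a cluster may be counted in common, and how the counting treated them is not given in the sources used here.

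**Figure D2:**
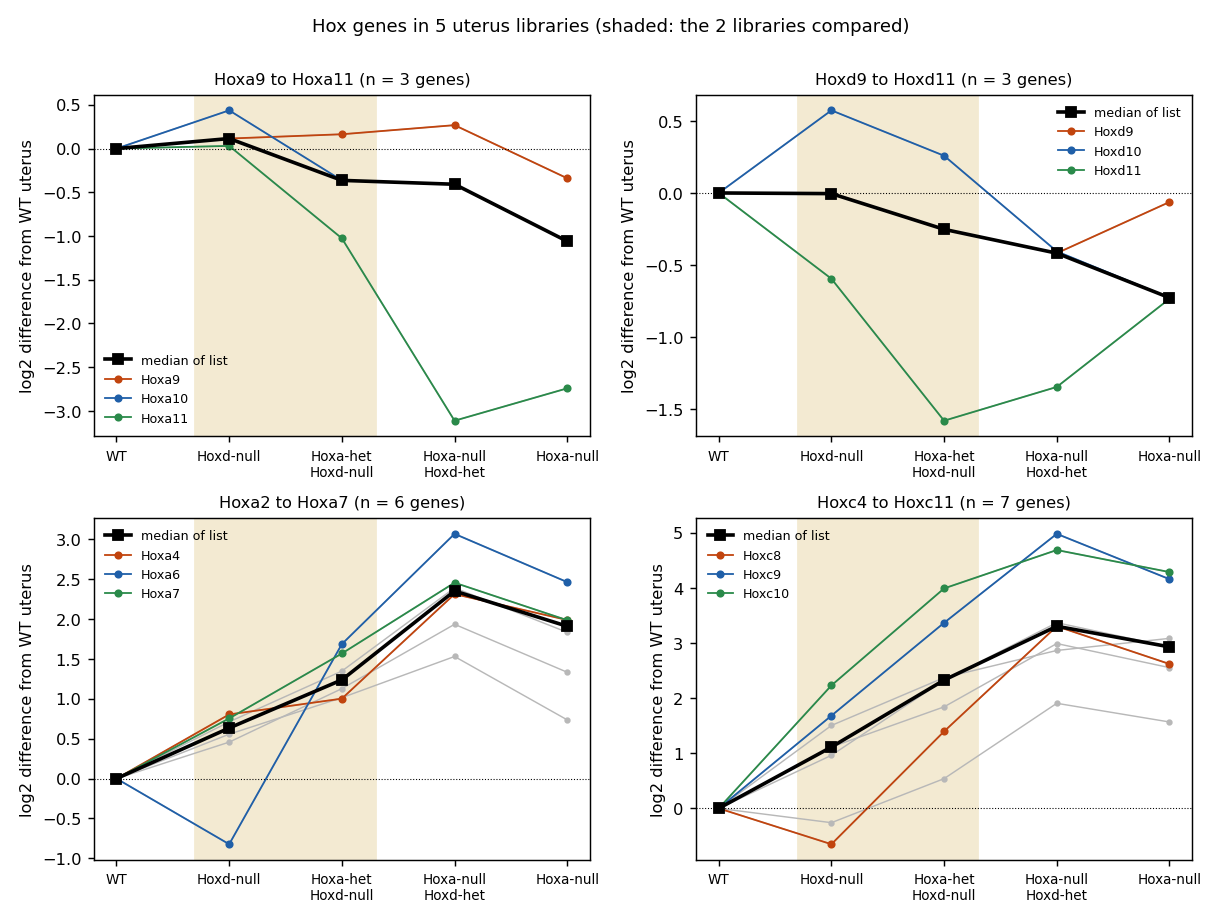
Log2 difference from WT uterus (y axis) in the 5 uterus libraries (x axis) for Hox genes, grey lines single genes, coloured lines the genes in the key and black squares the median of the panel. The Hoxc genes, and the outer Hoxa genes except Hoxa2, climb from Hoxd-null through Hoxa-het Hoxd-null to the Hoxa-null uteri. The Hoxc medians are 1.11, 2.33, 3.30 and 2.93.

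Transcription factors of duct patterning differed in both directions: 2 of 24 (8.33%) were called higher and 3 (12.5%) lower, against 5.46% and 4.51% of all measured genes. Pitx1, a homeobox gene of the posterior body, was listed at 1 normalised read in WT, 1.20 in Hoxd-null, 14.6 in Hoxa-het Hoxd-null, 80.1 in Hoxa-null Hoxd-het and 210.05 in Hoxa-null uterus. It was near the floor in the 2 uteri with an intact Hoxa block and above it in the 3 uteri with a mutated one. Pitx1 reached the minimum of 20 normalised reads only in the Hoxa-null uteri. Its place among the measured genes thus rests on its high values there. On the lower side, Tbx18, a T-box gene of urogenital mesenchyme, differed by -1.96, and Eya1, a transcriptional coactivator, by -1.61. Eya1 stood at -1.69 in Hoxd-null, -3.31 in Hoxa-het Hoxd-null, -3.76 in Hoxa-null Hoxd-het and -3.84 in Hoxa-null uterus, a stepwise order on the lower side.

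Genes of stratified squamous and basal epithelium, a tissue of the vagina and lower tract rather than of the simple uterine lining, were mostly higher. Of 21 measured members, 14 (66.7%) were called higher and 0 lower, against 5.46% and 4.51% of all measured genes, with a median difference of 1.51 against 0.01. The 7 members not called had differences from 0.00 to 0.84, and among all 31 measured keratin genes, those of simple epithelium and hair included, 10 were called higher and 5 lower. Krt1 and Krt10, keratins of the upper squamous layers, differed by 0.10 and -0.02, and Krt2, another, by -1.26; these 3 were picked after their values were seen. The basal keratin gene Krt5 differed by 3.04: relative to WT it was 0.19 in Hoxd-null, 3.23 in Hoxa-het Hoxd-null, 5.55 in Hoxa-null Hoxd-het and 7.31 in Hoxa-null uterus. Its partner keratin gene Krt14 differed by 2.66, with -0.20, 2.46, 4.22 and 6.99 in the same order. In both genes the Hoxd-null value was close to WT and the Hoxa-het Hoxd-null value was well below that of the Hoxa-null uteri.

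Krt6b, a keratin of stressed and suprabasal epithelium, differed by 3.75, with -1.85 in Hoxd-null, 1.89 in Hoxa-het Hoxd-null, 1.75 in Hoxa-null Hoxd-het and 8.38 in Hoxa-null uterus. The similar Krt6a differed by 2.75, and the 2 may share reads. Dsg3, a desmosomal cadherin of squamous layers, differed by 3.31, from -2.28 in Hoxd-null to 1.02. Lypd3, a surface protein of suprabasal cells, differed by 2.07. Col17a1, a collagen that anchors basal cells to the basement membrane, differed by 1.96, with 1.57, 3.53, 5.17 and 5.99 in the order used above. The list median relative to WT was 0.19 in Hoxd-null, 1.62 in Hoxa-het Hoxd-null, 2.42 in Hoxa-null Hoxd-het and 5.82 in Hoxa-null uterus, and 20 of the 21 genes were 2-fold or more above WT in the last. In 14 of the 21 the Hoxa-het Hoxd-null value lay above Hoxd-null and below both Hoxa-null uteri. This order was found in 13.5% of all measured genes and in 19.5% of the genes called higher. A call as higher fixes part of it. Whether cervical or vaginal tissue was included to a different extent in the pools was not tested.

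Uterine glands secrete the nutrients and factors on which implantation depends. Of 19 measured gland genes, 6 (31.6%, against 4.51% of all measured genes) were called lower and 2 higher, and their median was 0.00, so the group split rather than moved as a whole. Foxa2, the transcription factor required for gland formation, differed by -2.51, with -0.97 in Hoxd-null, -3.48 in Hoxa-het Hoxd-null, -2.05 in Hoxa-null Hoxd-het and -1.52 in Hoxa-null uterus. Ttr, the thyroid hormone carrier transthyretin, was listed at 143.2 normalised reads in WT, 70.2 in Hoxd-null, 1 in Hoxa-het Hoxd-null, 7.45 in Hoxa-null Hoxd-het and 16.1 in Hoxa-null uterus. Against 3 reads in the library at the floor, it was at least 25.6-fold lower in Hoxa-het Hoxd-null than in Hoxd-null. For both genes the Hoxa-het Hoxd-null library was the lowest of the 5 uteri.

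Spink3, a trypsin inhibitor, differed by -4.77, and was already -7.32 relative to WT in Hoxd-null, against -12.09 in Hoxa-het Hoxd-null, -6.84 in Hoxa-null Hoxd-het and -7.09 in Hoxa-null uterus. Wfdc3, of a family of protease inhibitors, differed by -3.68, Cxcl15, a chemokine of secretory epithelium, by -3.06 and Sult1d1, a sulfotransferase, by -2.22. Ttr, Spink3, Wfdc3, Cxcl15 and Foxa2 were 2-fold or more below WT in both Hoxa-null uteri as well, and Sult1d1 was at -0.53 in Hoxa-null Hoxd-het and -1.06 in Hoxa-null uterus. Genes of the uterine luminal epithelium did not share this direction: 2 of 18 (11.1%, against 5.46% of all measured genes) were called higher and 0 lower, with a median of 0.57.

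Progesterone acts on the uterus largely through epithelial Ihh, the ligand Indian hedgehog, whose signal is received in stroma by the receptor Ptch1. Of 19 progesterone-induced genes measured, 0 were called higher and 6 (31.6%, against 4.51% of all measured genes) lower, with a median of -0.76 against 0.01. The list includes Hoxa10 of the mutated block, which was not called. Ihh differed by -1.51: relative to WT it stood at -1.24 in Hoxd-null, -2.75 in Hoxa-het Hoxd-null, -0.09 in Hoxa-null Hoxd-het and -1.28 in Hoxa-null uterus. Il13ra2, a decoy receptor for interleukin 13, differed by -5.00, from -0.72 in Hoxd-null to -5.72 in Hoxa-het Hoxd-null, with -2.14 and -2.66 in Hoxa-null Hoxd-het and Hoxa-null uterus. Calca, which encodes calcitonin, differed by -3.93, with 0.44, -3.49, -1.10 and -1.47. In all 3 genes the Hoxa-het Hoxd-null library was the lowest of the uteri.

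The epidermal growth factor ligand gene Areg differed by -1.91, the activin-binding protein gene Fst by -1.73 and the endocytic receptor gene Lrp2 by -1.61. Areg was lowest in Hoxa-null uterus, at -3.94, and Lrp2 was above WT in Hoxa-null Hoxd-het, at 1.38, so the 6 genes did not share one order over the mutants. Of 12 measured steroid receptor and coregulator genes, 2 (16.7%, against 5.46% of all measured genes) were called higher and 0 lower. These were Esr2, the oestrogen receptor beta gene, at 1.75, and Nr3c2, the mineralocorticoid receptor gene, at 1.41.

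Of the 21 measured hedgehog and Notch genes, 0 were called higher and 4 (19.0%, against 4.51% of all measured genes) lower, with a median of -0.15. Beside Ihh, they included the pathway's transcription factor and target Gli1 (-1.57) and the hedgehog-binding inhibitor Hhip (-2.83). Hhip stood at 0.53 relative to WT in Hoxd-null, -2.31 in Hoxa-het Hoxd-null, 2.34 in Hoxa-null Hoxd-het and -0.08 in Hoxa-null uterus, so that it was low in the Hoxa-het Hoxd-null library and not in the Hoxa-null uteri. The hedgehog receptor gene Ptch1 differed by -0.83 and was not called.

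Oestrogen drives growth and secretion of the epithelium. Of 17 oestrogen-induced epithelial genes, 6 (35.3%, against 5.46% of all measured genes) were called higher and 0 lower, with a median of 0.76 against 0.01. Sprr2d, a small proline-rich protein gene, differed by 2.45, with 1.12 in Hoxd-null, 3.57 in Hoxa-het Hoxd-null, -2.71 in Hoxa-null Hoxd-het and -1.75 in Hoxa-null uterus. Its relatives Sprr2b and Sprr2e differed by 1.37 and 1.16, and reads may be shared among them. The complement gene C3 differed by 1.26 and the iron-siderophore carrier gene Lcn2 by 1.04. The list median relative to WT was 0.73 in Hoxd-null, 1.37 in Hoxa-het Hoxd-null, -0.48 in Hoxa-null Hoxd-het and -0.18 in Hoxa-null uterus. The Hoxd-null library was thus already above WT, and this group did not go the way of full Hoxa block loss. The cycle stage was the same for all females by the design text, and whether stages differed within diestrus was not tested.

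Genes of water, salt and calcium transport, which set the volume and make-up of uterine fluid, were called higher in 13 of 30 cases (43.3%, against 5.46% of all measured genes) and lower in 0, with a median of 0.84 against 0.01. The water channel gene Aqp4 differed by 3.59, with -0.94 in Hoxd-null, 2.65 in Hoxa-het Hoxd-null, 0.68 in Hoxa-null Hoxd-het and 0.15 in Hoxa-null uterus. Clca4, a regulator of chloride conductance, differed by 2.52, the anion transporter gene Slc26a9 by 2.31 and the sodium/proton exchanger gene Slc9a2 by 2.23. Aqp3, a water and glycerol channel also found in squamous epithelium, differed by 2.09 and, unlike Aqp4, was highest in the Hoxa-null uteri, at 5.15 and 5.59. Slc26a3, a chloride/bicarbonate exchanger gene, differed by 1.94. The median of the list relative to WT was -0.48 in Hoxd-null and 0.37 in Hoxa-het Hoxd-null, so the Hoxd-null library was below WT. It was also below WT in both Hoxa-null uteri, at -0.34 in Hoxa-null Hoxd-het and -0.79 in Hoxa-null uterus.

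**Figure D3:**
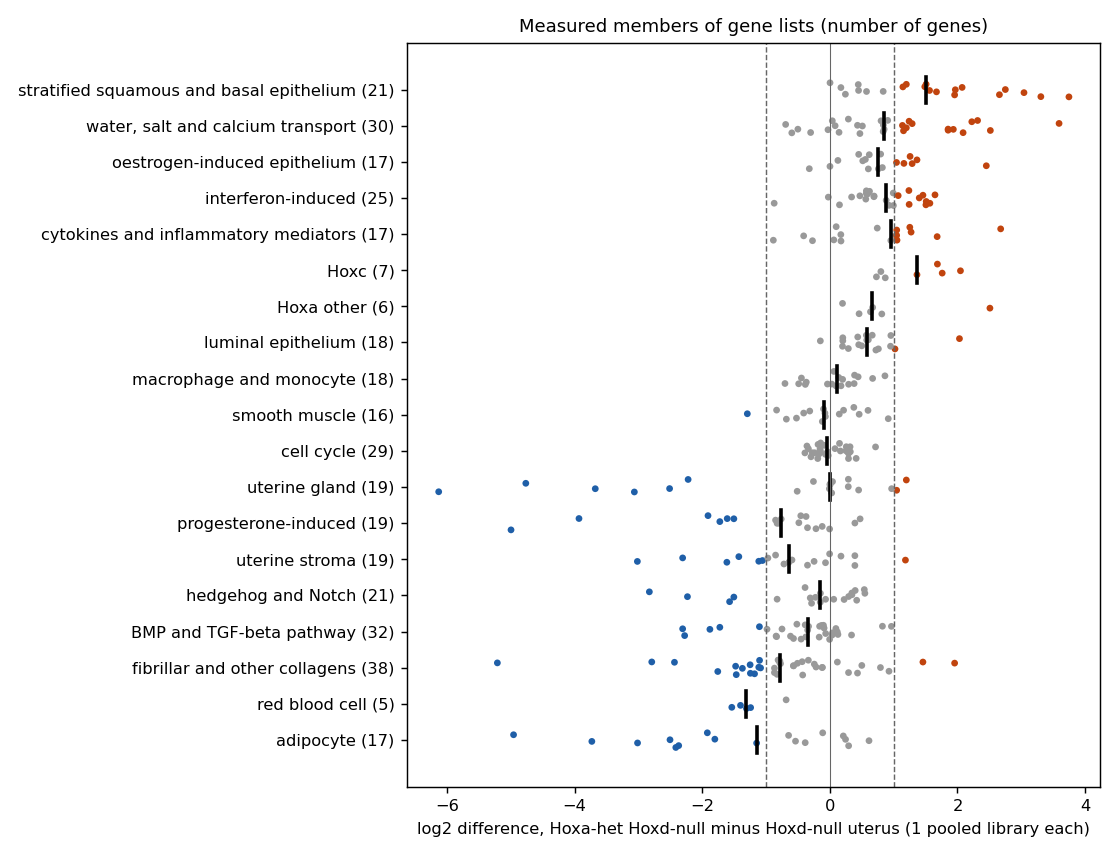
Points are measured members of gene lists, placed by their log2 difference, Hoxa-het Hoxd-null minus Hoxd-null uterus (x axis); orange and blue points are past the dashed 2-fold lines, black bars are list medians, and the number of genes follows each name. The squamous list has a median of 1.51 with 14 of 21 genes past the higher line, while the adipocyte list has a median of -1.15 with 9 of 17 past the lower line.

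Interferon-induced genes, the antiviral effectors switched on when interferon activates STAT and IRF factors at their promoters, were higher in the Hoxa-het Hoxd-null uterus and, by their median, lower in both Hoxa-null uteri. Of 25 measured members, 9 (36.0%, against 5.46% of all measured genes) were called higher and 0 lower, with a median of 0.88 against 0.01. The list median was -0.02 relative to WT in Hoxd-null, 0.77 in Hoxa-het Hoxd-null, -0.73 in Hoxa-null Hoxd-het and -0.89 in Hoxa-null uterus. Because many of these genes are known to carry the interferon-stimulated response element, the RefSeq promoter windows (build GRCm38.p6, not the build of the deposited values) were searched on both strands for its core, GAAA repeated after any 2 bases. Of 19 measured members with an entry, 13 held it (68.4%), against 3.99% of 27025 genes with an entry. Of the 9 members called higher, 5 had an entry and 3 of these held it (60.0%). Stretches of the windows of these 3 are shown with the matches in capitals, each 5′ to 3′ on the strand of its gene; TTTC repeated after 2 bases is the same core on the opposite strand, and no other interferon motif was sought. They lie at chr19:34640740-34640858 (+ strand, Ifit1), chr5:120777680-120777779 (- strand, Oas3) and chr12:26456518-26456617 (- strand, Rsad2).
Ifit1: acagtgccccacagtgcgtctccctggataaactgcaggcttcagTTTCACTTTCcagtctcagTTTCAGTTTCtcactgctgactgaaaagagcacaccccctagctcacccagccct
Oas3: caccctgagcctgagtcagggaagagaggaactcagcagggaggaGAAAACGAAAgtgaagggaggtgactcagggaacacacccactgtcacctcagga
Rsad2: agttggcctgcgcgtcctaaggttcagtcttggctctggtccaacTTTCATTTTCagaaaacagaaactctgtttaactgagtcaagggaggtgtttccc

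The match begins 75 bases before the start site in Oas3, 120 bases before it in Rsad2, and the first of 2 begins 104 bases before it in Ifit1. A match is a description of the letters and not a measured site. The GLI core, GACCACCCA, was searched in the same way in 16 hedgehog and Notch genes. The oestrogen response element, GGTCA and TGACC set 3 bases apart, was searched in 14 oestrogen-induced genes. These 2 motifs had 0 matches, against 0.289% and 0.0740% of all genes. At shares this low, 0 matches among so few genes tells nothing about either list.

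Oas3, which makes the second messenger that activates RNase L, differed by 1.65: relative to WT it was 0.00 in Hoxd-null, 1.65 in Hoxa-het Hoxd-null, -1.68 in Hoxa-null Hoxd-het and -1.63 in Hoxa-null uterus. Oasl1, a related gene, differed by 1.57, with -0.07, 1.50, -1.24 and -1.36 in the same order. Rsad2, the antiviral protein viperin, differed by 1.51, with -0.73, 0.77, -0.85 and -1.19. In each of these the Hoxa-het Hoxd-null library was the highest of the 5 uteri and the Hoxa-null uteri were below WT. Ifit1, an RNA-binding antiviral protein gene shown here for its motif, differed by 1.24, Ifi44 by 1.51, Oas2 by 1.46 and Zbp1, a sensor of nucleic acid, by 1.40.

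Inflammatory mediators had the same direction in the compared pair. Of 17 cytokine and mediator genes, 7 (41.2%, against 5.46% of all measured genes) were called higher and 0 lower. Their median was 0.96 against 0.01, and it was 0.39 when genes below the minimum level were kept. The interleukin 1 alpha gene Il1a differed by 2.68, with 0.43 in Hoxd-null, 3.10 in Hoxa-het Hoxd-null, 0.39 in Hoxa-null Hoxd-het and -0.65 in Hoxa-null uterus. Il10, an anti-inflammatory cytokine gene, differed by 1.68 and Nos2, the inducible nitric oxide synthase gene, by 1.27. Of 28 chemokine genes, 5 (17.9%) were called higher and 3 (10.7%) lower, against 5.46% and 4.51% of all measured genes. The chemokine median was 0.20, and 16 of the 28 genes were above 0. Cxcl5, a neutrophil attractant gene, differed by 2.96 and Cxcl1 by 1.81, while Cxcl15 differed by -3.06 and Xcl1 by -1.37. Among the marker lists of immune cells, 0 of 18 macrophage and monocyte genes were called, with a median of 0.12. Of 14 neutrophil genes 3 (21.4%) were called higher and 1 (7.14%) lower, against 5.46% and 4.51% of all measured genes. The neutrophil median was -0.36. The neutrophil list was 2.08 above WT in Hoxd-null and 2.62 in Hoxa-het Hoxd-null, so both compared libraries were high for it. Of 16 T cell genes 0 were called higher and 2 (12.5%) lower, and of 17 NK cell genes 2 (11.8%) higher and 1 (5.88%) lower. Of 11 B and plasma cell genes 2 (18.2%) were called higher and 0 lower. The same shares of all measured genes, 5.46% higher and 4.51% lower, apply to these lists.

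**Figure D4:**
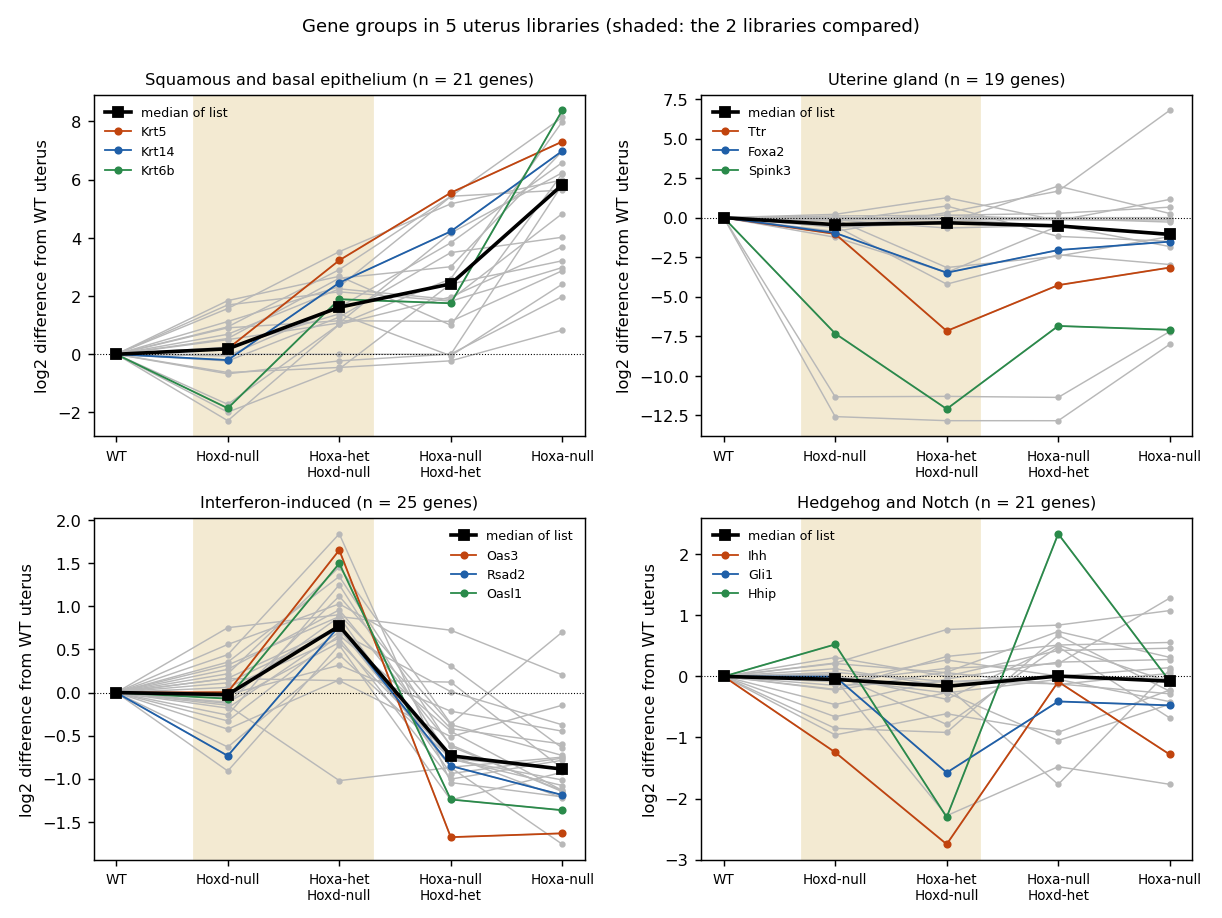
Log2 difference from WT uterus (y axis) in the 5 uterus libraries (x axis) for 4 gene groups, grey lines single genes, coloured lines the genes in the key and black squares the list median; the compared pair is shaded. The squamous median climbs to 5.82 in Hoxa-null uterus, while the interferon median peaks at 0.77 in Hoxa-het Hoxd-null and is -0.89 in Hoxa-null uterus.

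In the uterine stroma, the supporting connective tissue beneath the epithelium, 6 of 19 measured genes (31.6%, against 4.51% of all measured genes) were called lower and 1 higher, with a median of -0.64 against 0.01. Hoxa11, 1 of the 6, belongs to the mutated block itself, and Eya1, described above, is another of them. Hsd11b2, which inactivates glucocorticoid, differed by -3.02, with 0.39 in Hoxd-null, -2.62 in Hoxa-het Hoxd-null, -3.08 in Hoxa-null Hoxd-het and -1.42 in Hoxa-null uterus. Nog, the BMP antagonist noggin, differed by -2.31, with -2.10, -4.41, -6.19 and -3.90 in the same order. The matrix proteoglycan gene Vcan differed by -1.43. The one stromal-list gene called higher was Fgf9, a growth factor gene, at 1.18. Of 32 BMP and TGF-beta pathway genes, 0 were called higher and 5 (15.6%, against 4.51% of all measured genes) lower. They included the BMP antagonist Chrdl2 (-2.28) and the ligand genes Gdf5 (-1.88) and Gdf7 (-1.10). Nog of the stromal list and Fst of the progesterone-induced list were counted here too.

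Collagens were lower more often than higher: of 38 measured genes 13 (34.2%, against 4.51% of all measured genes) were called lower and 2 higher, with a median of -0.78 against 0.01. Col22a1, a collagen of tissue junctions, was listed at 111.6 normalised reads in WT, 37.1 in Hoxd-null, 1 in Hoxa-het Hoxd-null, 4.01 in Hoxa-null Hoxd-het and 1 in Hoxa-null uterus. It was at least 13.5-fold lower in Hoxa-het Hoxd-null than in Hoxd-null. Emid2, a collagen gene listed under its older symbol, differed by -2.79, with 0.43, -2.36, -2.74 and -2.93 in the order of mutants used above. Col11a1, a fibrillar collagen, differed by -2.44. The list median was 0.56 above WT in Hoxd-null, -0.14 in Hoxa-het Hoxd-null, 0.54 in Hoxa-null Hoxd-het and 0.51 in Hoxa-null uterus. Col17a1, one of the 2 higher genes, belongs to the squamous list too, and Col6a4, one of the 13 lower genes, to the stromal list.

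Of 37 Wnt pathway genes, 2 (5.41%) were called higher and 3 (8.11%) lower, against 5.46% and 4.51% of all measured genes. Wnt6 differed by -1.27, Wnt5a by -1.13 and the transcription factor gene Lef1 by -1.01, while the ligand gene Wnt2b differed by 1.04 and the antagonist gene Sost by 1.20. Lef1 and Wnt2b went the way of both Hoxa-null uteri, at -2.65 and 2.14 in Hoxa-null uterus, and Wnt5a did not, at 0.42. Of 21 fibroblast growth factor genes 3 (14.3%) were called higher and 0 lower, among them Fgf2 (2.01) and Fgf1 (1.38). None of 29 cell cycle genes was called, with a median of -0.04, and none of 16 endothelial genes was, with a median of 0.00. Of 16 smooth muscle genes 1 (6.25%) was called, Actg2, the enteric gamma-actin gene, at -1.29.

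Markers of other cells moved with the comparison. Of 17 adipocyte genes 9 (52.9%, against 4.51% of all measured genes) were called lower and 0 higher, with a median of -1.15 (-0.90 without the genes at the floor) and a median relative to WT of -0.43 in Hoxd-null, -2.23 in Hoxa-het Hoxd-null, -0.01 in Hoxa-null Hoxd-het and -0.87 in Hoxa-null uterus. Lep, the leptin gene, was listed at 28.5 normalised reads in WT, 31.1 in Hoxd-null, 1 in Hoxa-het Hoxd-null, 6.01 in Hoxa-null Hoxd-het and 13.2 in Hoxa-null uterus. Adipoq, the adiponectin gene, differed by -2.51 and Retn, the resistin gene, by -3.73. The adipocyte genes were low in the library in which the progesterone-induced, stromal and collagen genes were called lower, and their part in those differences was not tested. Of 5 red blood cell genes 4 (80.0%, against 4.51% of all measured genes) were called lower and 0 higher, with a median of 1.33 above WT in Hoxd-null and 0.03 in Hoxa-het Hoxd-null.

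Steroid-synthesis genes of the ovary gave the largest single value. Hsd3b1, which makes progesterone from pregnenolone, was listed at 1 normalised read in WT and Hoxd-null, 270.5 in Hoxa-het Hoxd-null, 2 in Hoxa-null Hoxd-het and 20.3 in Hoxa-null uterus, and at 4912 in the oviduct library. Against 3 reads, it was at least 75.3-fold higher in Hoxa-het Hoxd-null than in Hoxd-null. Cyp11a1, the cholesterol side-chain cleavage enzyme gene, differed by 5.41. Relative to WT uterus it was 0.93 in Hoxd-null, 6.34 in Hoxa-het Hoxd-null, 1.78 in Hoxa-null Hoxd-het, 3.27 in Hoxa-null uterus and 10.82 in the oviduct. Lhcgr, the luteinising hormone receptor gene, was at 1 normalised read in Hoxd-null, 20.4 in Hoxa-het Hoxd-null and 127.1 in oviduct, and at least 5.68-fold higher by the same bound. In all, 4 of 16 ovary and steroidogenesis genes (25.0%, against 5.46% of all measured genes) were called higher and 0 lower. The list median was 0.23, and 3 of the 16 were at the floor in Hoxa-het Hoxd-null against 5 in Hoxd-null. Whether ovarian tissue was carried into any of the pools was not tested.

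**Figure D5:**
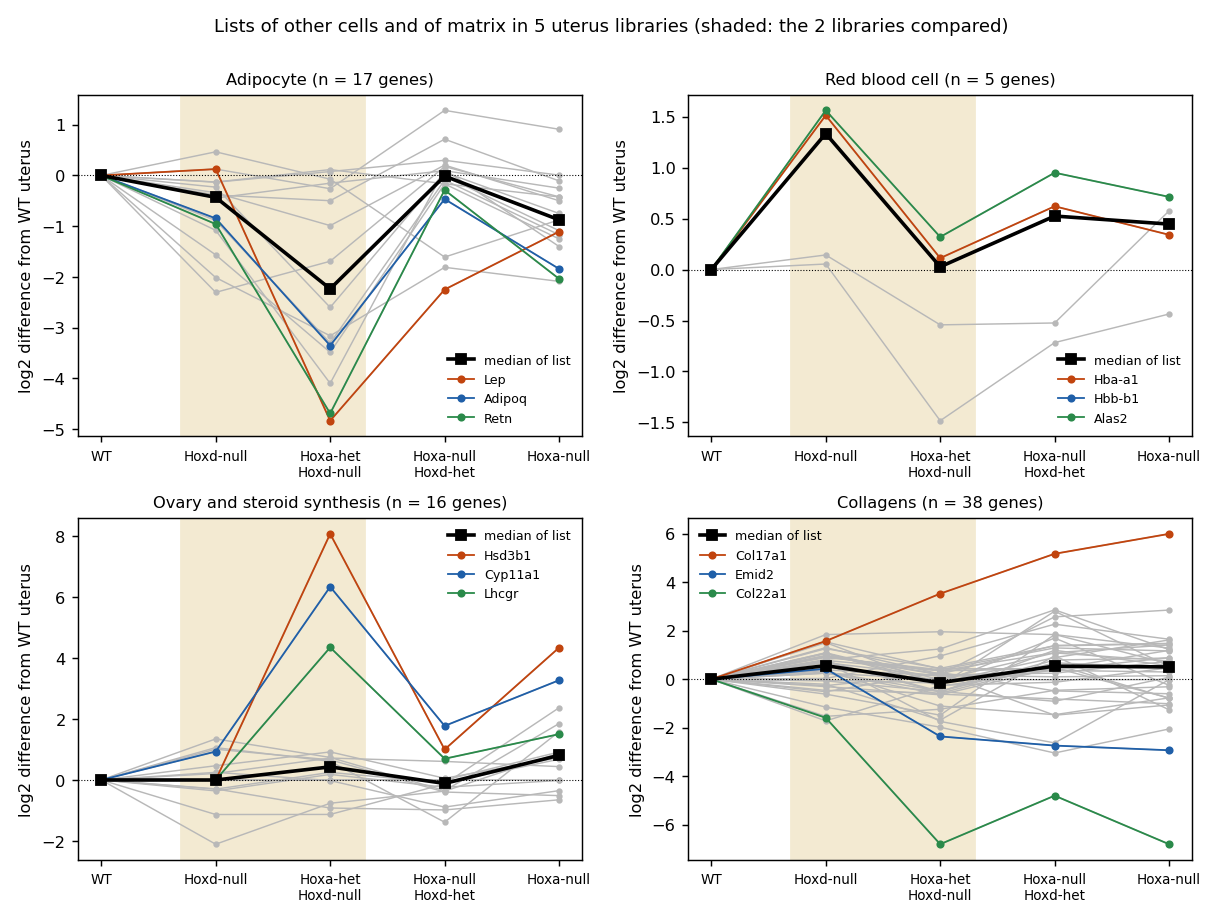
Log2 difference from WT uterus (y axis) in the 5 uterus libraries (x axis) for adipocyte, red blood cell, ovary and collagen lists, grey lines single genes, coloured lines the genes in the key and black squares the list median. Hsd3b1 and Cyp11a1 are highest in Hoxa-het Hoxd-null uterus, where the adipocyte median is lowest, at -2.23.

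The remaining genes with the greatest differences were of many kinds. On the higher side, Nox1, a superoxide-making oxidase gene, differed by 5.50 and stood at -4.27 in Hoxd-null, 1.23 in Hoxa-het Hoxd-null, -4.43 in Hoxa-null Hoxd-het and -4.53 in Hoxa-null uterus, so that Hoxa-het Hoxd-null was above WT and the 3 other mutants far below it. Asb11, a substrate adaptor of ubiquitin ligase, differed by 4.04 and was high in the Hoxa-null uteri, at 4.96 and 4.01. Muc13, a transmembrane mucin gene, differed by 3.79 and Klk1b5, a kallikrein gene, by 4.72. Plag1, a zinc-finger transcription factor gene, differed by 3.33 and was at 4.42 and 2.59 in Hoxa-null Hoxd-het and Hoxa-null uterus.

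On the lower side, Mc4r, a melanocortin receptor gene, was listed at 35.1 normalised reads in WT, 40.7 in Hoxd-null, 1 in Hoxa-het Hoxd-null, 63.1 in Hoxa-null Hoxd-het and 13.2 in Hoxa-null uterus, which is at least 14.8-fold lower in the compared pair. Kif12, a kinesin gene, differed by -4.31 and was below WT in all 4 mutants, at -1.56, -5.86, -4.28 and -1.66 in the order used above. Tmprss11a, an epithelial serine protease gene, differed by -4.75. Nefm, a neurofilament gene, differed by -3.40 and Gap43, a growth cone protein gene, by -2.70. Of 18 neuron and neuropeptide genes 5 (27.8%) were called lower and 1 (5.56%) higher, against 4.51% and 5.46% of all measured genes. The acetylcholine transporter gene Slc18a3 was listed at 21.6 normalised reads in Hoxd-null and at 1 in Hoxa-het Hoxd-null and both Hoxa-null uteri, a value that stood apart in Hoxd-null.

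The same change of genotype was available in the vas deferens, which forms from the Wolffian duct of the male, again with 1 pool each but in different runs. Of the 721 higher uterus genes measured there, 134 (18.6%) were 2-fold or more higher and 49 (6.80%) lower. Of the 533 lower genes measured, 49 (9.19%) were lower and 116 (21.8%) were higher. Over all measured genes 7.90% were higher and 4.17% lower in vas deferens, so this pair was skewed to the higher side for all genes. The higher and the lower genes of the uterus were both more often higher than lower there. For each set, both shares were above those of all measured genes. Of the 7 Hoxc genes, 4 were called higher there and 0 lower, with a median of 1.01: Hoxc10 differed by 1.93 and Hoxc5 by 0.47, while Hoxc11 differed by -0.54, against 0.87 in uterus. Hoxa6 was at -0.99 in vas deferens, opposite to uterus. Lep differed by 1.75 and Calca by 1.14 there, opposite to uterus.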

How the data were processed

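Total RNA of fresh tissue was extracted with the RNeasy Mini kit and made into TruSeq libraries, per the labels' protocols, and TopHat and the mm9 genome build are named in the submitters' processing notes. How reads were counted and normalised, and on which annotation, is not given in the sources used here. The deposited values are log2 for each gene and library. Genes tied at a floor showed that reads were multiplied by 1 factor for each library, raised to at least 1 normalised read and centred on the median of the 6 libraries of a sex.

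The 12 libraries were read with Python 3 and pandas, NumPy and SciPy. Of 31618 genes, 12595 did not vary among the female libraries and 2187 fell below 20 normalised reads in their highest library. The 16836 measured genes are those that reached 20 normalised reads and 16460 of unreadable level. Levels below 20 were read from steps of whole and shared reads, which can drop a gene of higher level; with whole reads only, 277 genes were added. Median shifts between libraries of at most 0.00171 log2 (female) and 0.00674 (male) were removed. The recovery of factors and calls was checked on simulated data. No test was possible with 1 pool per group; calls are differences of 1 log2 unit or more, and the main lists' counts are given beside the shares of all measured genes.

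The members and gene lists were chosen with earlier results of these data known. Genes named are the 15 highest and 15 lowest with unique, non-predicted symbols, the 8 highest and 8 lowest that follow full Hoxa block loss, the 6 and 6 opposite to it, all Hox genes, and up to 6 members of each list with 3 or more calls or up to 3 of others, by size. Ifit1 was added for its sequence. Some genes that the rule names are not reported here. Alternatives were other thresholds, minimum levels, centring, and leaving out floor or predicted genes. Promoters and their sequences are from RefSeq.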

Additional observations from a re-analysis of the deposited data

Results flagged for a closer look

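The adipocyte list went opposite ways in the 2 tissues under the same change of genotype. Its median difference, Hoxa-het Hoxd-null minus Hoxd-null, was -1.15 in uterus, where 9 of 17 genes were called lower and 0 higher, and 1.75 in vas deferens, where 12 of 17 were called higher and 0 lower. It was singled out because both medians were at least 0.5 in size with opposite signs, which no other list with 5 or more measured genes in each tissue met. Of all measured genes, 4.51% were called lower in uterus and 7.90% higher in vas deferens. With 1 pool a side the difference between the tissues was not tested.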

How the results depend on the processing

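No paired analysis was possible because each genotype has 1 pooled library and no replicate numbers are shared. A 3-fold threshold left 377 genes higher and 337 lower, and a 4-fold threshold 200 and 199. Of the higher genes, the 17.2% that followed full Hoxa block loss became 24.5% by Hoxa-null uterus alone, 28.3% by Hoxa-null Hoxd-het uterus alone, 38.6% by same sign in both and 24.5% at 4-fold; the share going the opposite way, 9.57%, became 20.8%, 17.1%, 32.1% and 9.50%. Of the lower genes, 23.3% became 35.1%, 36.3%, 49.1% and 38.7%, and the opposite 6.18% became 13.7%, 16.2%, 22.4% and 5.53%. Counts stayed within 1.5 times under the minimum-level, centring, floor and predicted-transcript settings. Reading low levels from whole reads only, an alternative chosen after seeing the data, gave 967 higher and 809 lower. No list median past the 2-fold line and no named gene changed sign. With no minimum level the Hoxc median fell from 1.37 to 0.87 and the cytokine and mediator median from 0.96 to 0.39. The adipocyte median moved from -1.15 to -0.90 in that setting. The medians of other Hoxd genes (0.24 to -0.13), neutrophil genes (-0.36 to 0.00) and gland genes (within 0.01 of 0) changed sign. Centring changed the sign of the gland, endothelium and fibroblast growth factor medians, all within 0.01 of 0. The unknown level of most genes and the single pool a side limit every value.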

Other observations

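Some gene families stood out after their values were seen, and are given as values only. Of 17 measured kallikrein genes, all on chromosome 7 and encoding secreted serine proteases, 12 were 2-fold or more higher in Hoxa-het Hoxd-null than in Hoxd-null uterus and 0 lower (against 5.46% and 4.51% of all measured genes), with a median difference of 1.99 and a range from -0.15 to 4.72. Their median relative to WT was -0.91 in Hoxd-null, 0.54 in Hoxa-het Hoxd-null, 0.52 in Hoxa-null Hoxd-het and 1.74 in Hoxa-null uterus. Klk1b5 differed by 4.72 and Klk1 by 3.87. Klk1b genes are near-identical copies, so reads may be shared among them and the genes are not separate observations.

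All 5 measured genes Serpina1a to Serpina1e, which encode the alpha-1-antitrypsin family of elastase inhibitors, were called higher, against 5.46% of all measured genes. Their median was 2.81, with a range from 1.99 to 2.96. Relative to WT the family median was -0.64 in Hoxd-null, 2.04 in Hoxa-het Hoxd-null, 0.33 in Hoxa-null Hoxd-het and 0.36 in Hoxa-null uterus. These copies are also alike in sequence, and their reads may be shared.

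Of the mesothelium list, genes of the lining of the body cavity, 10 of 14 had a Hoxa-het Hoxd-null value above Hoxd-null and below both Hoxa-null uteri, against 13.5% of all measured genes. Only 1 of the 14 was called higher, Bnc1, at 1.14, and 1 lower, Calb2, at -2.19 (7.14% each, against 5.46% and 4.51% of all measured genes). The list median was 0.02 relative to WT in Hoxd-null, 0.47 in Hoxa-het Hoxd-null, 1.29 in Hoxa-null Hoxd-het and 0.84 in Hoxa-null uterus.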
